A study of Mus musculus with 6 samples.

Results

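The presynaptic active zone is the patch of nerve terminal membrane where synaptic vesicles are docked, primed and released. Its scaffold genes and priming genes were followed here as 10 named members among the 24346 genes of each deposited table. They are the RIM genes Rims1, Rims2, Rims3 and Rims4, the RIM-binding protein gene Rimbp2, the Munc13 genes Unc13a, Unc13b and Unc13c, and the giant scaffold genes Bsn (Bassoon) and Pclo (Piccolo). All 10 were found by symbol, and all 10 were among the 13122 genes with at least 1 FPKM in at least 3 libraries. The gene families were chosen by the difference between genotypes already seen in Rims1 and Unc13c in these same libraries, so the genotype differences of the members are a description and carry no test.

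Hippocampal RNA came from 6 C57BL/6 mice of 12 months, 3 wild type (WT 1 to WT 3) and 3 labelled TonEBP+/- (HET 1 to HET 3). TonEBP is the tonicity-responsive transcription factor encoded by Nfat5, and the HET animals are heterozygous for a disrupted allele. The genotypes were littermates of TonEBP+/- parents, backcrossed to C57BL/6J, with a sex not given in the sources used here. The series is titled for an effect of TonEBP on TRIM37, and the design compares the genotypes. Nfat5 itself was at 9.53 ± 1.07 FPKM in the wild-type libraries, compared with 8.66 ± 0.567 FPKM in HET (SD, n = 3 each) with overlapping ranges. The position of the disruption within Nfat5 is unstated in the labels, so this whole-gene value checks no label.

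FPKM, a count of fragments divided by transcript length and library depth, is the reading of the deposited log2 values used throughout. It is a level per length, so setting genes beside each other rests on the transcript lengths used, which were not given. The members have from 1 (Rims4) to 16 (Unc13b) annotated transcripts in GENCODE M21. From the spacing of low values, libraries were estimated to hold 8050000 (HET 1) to 12700000 (HET 3) fragments. On that estimate and the longest annotated transcript, the lowest library held about 3867 fragments for Rims1 and about 586 for Rims4, and the counting error alone was 1.61% to 4.13% over the members in their lowest libraries. The labels number the mice and say no more on how the samples were kept apart, so any spread between libraries given here may be partly technical. Low values differed in form: WT 2 and HET 2 had 6210 and 6917 genes at 0, and 14 and 3 above 0 but under 0.001 FPKM. Each other library had 4262 genes at 0 and 2199 to 2609 such small values. The source of this difference was not tested.

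In a terminal, RIM proteins bind vesicle-bound Rab3 and, through RIM-binding proteins, calcium channels, and they recruit and activate Munc13. Munc13 proteins then open syntaxin so that the fusion complex can assemble, the step called priming. Bassoon and Piccolo are very large scaffold proteins that organize the vesicle cluster behind the active zone. Rims1 and Rims2 encode long multidomain proteins, whereas Rims3 and Rims4 encode short ones that keep only the carboxy-terminal C2 domain. In hippocampal excitatory synapses Munc13-1, the product of Unc13a, is the main priming factor, and Munc13-3, the product of Unc13c, is best known from the cerebellum.

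The windows just upstream of 3 start sites are shown because Rims1 and Unc13c carried the differences that led to this set, and because Unc13b was the only one of the members with a window in the table to hold TGGAAA, the core of the element that TonEBP binds. Sequences are the 250 bases before the start in RefSeq on GRCm38.p6, the assembly that mm10 names, written 5′ to 3′ on the strand of the gene. Capitals mark GGAAA, the core of NFAT sites, on either strand (TTTCC where it lies on the other strand), and in Unc13b the T before it as well. The Rims1 window is chr1:22806159-22806408 (minus strand), that of Unc13c is chr9:73969038-73969287 (minus strand), and that of Unc13b is chr4:43058703-43058952 (plus strand).
Rims1: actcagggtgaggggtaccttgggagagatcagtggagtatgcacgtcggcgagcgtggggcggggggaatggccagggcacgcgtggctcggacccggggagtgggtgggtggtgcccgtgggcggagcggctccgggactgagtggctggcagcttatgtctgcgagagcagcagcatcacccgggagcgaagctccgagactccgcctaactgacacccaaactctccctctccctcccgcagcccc
Unc13c: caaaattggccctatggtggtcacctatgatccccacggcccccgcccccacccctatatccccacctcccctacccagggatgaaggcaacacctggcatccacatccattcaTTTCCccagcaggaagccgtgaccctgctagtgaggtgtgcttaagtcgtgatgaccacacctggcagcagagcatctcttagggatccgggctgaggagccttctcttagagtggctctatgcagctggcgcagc
Unc13b: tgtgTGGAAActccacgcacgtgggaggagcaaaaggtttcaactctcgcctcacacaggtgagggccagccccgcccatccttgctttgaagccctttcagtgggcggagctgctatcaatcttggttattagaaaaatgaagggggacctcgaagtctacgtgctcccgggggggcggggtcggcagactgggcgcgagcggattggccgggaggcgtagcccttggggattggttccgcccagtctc

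Promoter windows were matched for 8 of the 10 members, without Rims2 and Rims4. GGAAA, on both strands, was in 5 of the 8 windows (Unc13a, Unc13b, Unc13c, Bsn and Pclo) and in 55.7% of 32536 promoter windows of the same length. TGGAAA, which contains GGAAA, was in 1 of the 8 and in 18.6% of all windows. The full tonicity element, TonE, was in 0 of the 8 and in 4.32% of all, and the cyclic AMP element TGACGTCA (1.56% of all) and TTCAGCACC, a part of the REST site (0.301% of all), were in 0 as well. The Rims1 window, which held none of the 5 motifs, was rich in G and C (68.0%, with 19 CG pairs). That of Unc13c was at 58.8% with 6 CG pairs, with a position inside the annotated span of the gene, which extends farther upstream. The same holds for the Unc13b window, so neither lies before the outermost annotated start. For Rims1 and Unc13c a short stretch after the start was not found in a GENCODE M21 transcript of the gene, so their start sites rest on RefSeq alone. In the other matched windows that stretch was found. A match is only a match of letters, and the absence of one says nothing beyond this window.

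Among the members Rims1 had the highest level in all 6 libraries. Averaged over the 6 libraries, the FPKM levels ran from Rims1 (92.6) through Rims3 (32.5), Rims2 (30.9), Bsn (28.8), Pclo (21.1), Unc13a (20.5), Unc13c (18.1), Rimbp2 (15.2) and Rims4 (14.2) to Unc13b (6.19). The order of the group means differed: in wild type Unc13c lay above Pclo and Unc13a and Rims3 above Rims2. In HET the mean of Unc13c lay below those of Rimbp2 and Rims4, and that of Rims2 above that of Rims3. Some of these means were nearly equal, as Unc13c and Pclo in wild type (21.61 and 21.59 FPKM) and Rims2 and Rims3 in HET (29.8 and 29.4 FPKM). None of these orders held in every library of its genotype. Levels as such were not used to choose the members. Of the 9 neighbouring pairs in this order, 3 stood in the same order in 6 of 6 libraries: Rims1 over Rims3 by 1.46 ± 0.626 on the log2 scale, Bsn over Pclo by 0.43 ± 0.186, and Rims4 over Unc13b by 1.08 ± 0.0813 (SD, n = 6). Each of these reached the smallest p that a two-sided exact sign-flip permutation over 6 libraries can give, which was 0.0938 after Benjamini-Hochberg adjustment over the 9 pairs, so 0 pairs passed 0.05. The other 6 pairs were closer, from 0.03 ± 0.0878 (Pclo over Unc13a) to 0.22 ± 0.381 (Unc13c over Rimbp2), and changed order between libraries. Among all tested genes the level of Rims1 stood at the 94.5th percentile and that of Unc13b at the 35.8th.

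**Figure D1:**
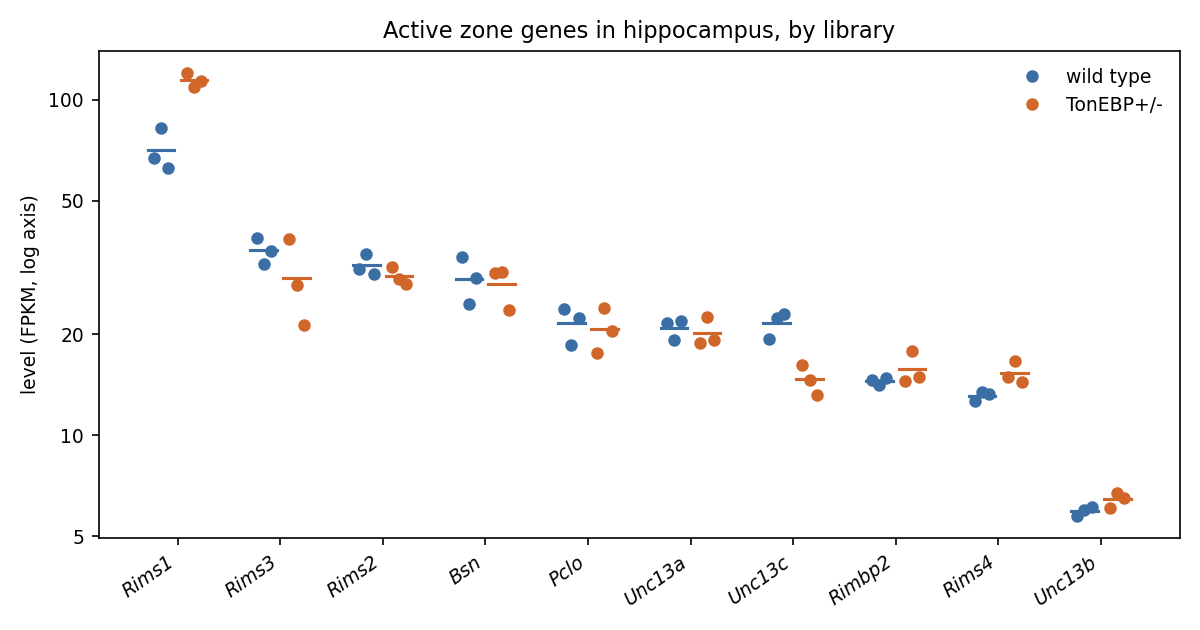
Level of each gene in FPKM (log axis) in the 3 wild-type libraries (blue) and the 3 libraries labelled TonEBP+/- (orange); points are libraries and lines are group means. Rims1 lies apart from the other 9 genes, and in Rims1, Rims4 and Unc13c the colours do not overlap.

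Set beside wild type, the HET libraries held more Rims1 and Rims4 and less Unc13c, while the other 7 members overlapped between genotypes. In the limma fit over all 13122 genes 0 of the 10 members passed an adjusted p of 0.05, where 0% of all genes passed. At an unadjusted p under 0.05 there were 3 members (Rims1, Rims4 and Unc13c) against 3.69% of all genes tested. The same 3 members had no overlap between the genotypes, against 8.52% of all genes tested. Because this contrast led to the choice of the families, nothing is read from these counts. The members differed among themselves in direction, 4 higher and 6 lower in HET, with a median log2 difference of -0.05, and the median over all tested genes was -0.00.

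Rims1 (chromosome 1, 22285972 to 22806158, minus strand) encodes the long RIM that ties Rab3, Munc13 and calcium channels together. Its levels were 67.3, 82.3 and 62.8 FPKM in WT 1 to WT 3 and 120 (HET 1), 109 (HET 2) and 114 FPKM (HET 3). The lowest HET library thus lay above the highest wild-type library, WT 2. The group means were 70.8 ± 10.2 and 114 ± 5.72 FPKM (SD, n = 3 each), 61.6% more in HET, and the log2 difference was 0.69 (SE 0.0988). It was the 32nd largest difference in size among the 13122 genes. With 1 library left out in turn it ran from 0.61 to 0.80. With all 6 libraries its adjusted p was 0.383 (limma). Without WT 2 it passed the fit over all genes (adjusted p = 0.0421, limma), the only gene to do so in that fit. In that setting 21.7% of all genes did not overlap, and Rims1 passed in none of the other alternatives. WT 2 was its highest wild-type library, so leaving it out widened the difference. As Rims1 was chosen by this contrast, the pass is a description and carries no test.

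Rims2 (chromosome 15, 39198286 to 39684372, plus strand) encodes the closest relative of Rims1 with the same domains. It was at 31.4, 34.7 and 30.3 FPKM in the wild-type libraries, compared with 31.7, 29.3 and 28.3 FPKM in HET. The ranges overlapped, and the log2 difference was -0.11 (SE 0.0773, 95% interval -0.28 to 0.07).

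Rims3 (chromosome 4, 120854779 to 120896580, plus strand), a short RIM, was at 38.9, 32.4 and 35.5 FPKM in wild type. In HET it was at 38.6, 28.1 and 21.4 FPKM, so HET 1 sat among the wild-type libraries and HET 2 and HET 3 below them. Its spread within genotypes was the largest among the members, at the 95.1st percentile of all tested genes. The log2 difference was -0.31 (SE 0.198), -0.52 without HET 1 and -0.10 without HET 3.

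Rims4 (chromosome 2, 163859756 to 163918973, minus strand), the other short RIM, was at 12.6, 13.5 and 13.3 FPKM in the wild-type libraries, compared with 14.9, 16.7 and 14.4 FPKM in HET. All HET libraries were above all wild-type libraries, by 16.8% in the means, and the log2 difference was 0.21 (SE 0.0792). The margin was narrow, 13.5 (WT 2) against 14.4 FPKM (HET 3). With 1 library left out the difference ran from 0.15 to 0.25.

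Within the RIM family the make-up of the summed FPKM differed between the groups. Rims1 made up 44.8%, 50.5% and 44.3% of it in wild type and 58.6%, 59.5% and 63.9% in HET. The share of Rims2 was 21.2 ± 0.257% in wild type and 15.8 ± 0.323% in HET (SD, n = 3 each), although its own level overlapped, because the sum contains Rims1. Without Rims1 the sum of the other RIM genes was 80.9 ± 1.88 FPKM in the wild-type libraries, compared with 74.5 ± 10.5 FPKM in HET, ranges that overlapped. These shares follow from the same contrast and add no separate support. Each deposited value covers a whole gene. Long and short forms of Rims1, which has 9 annotated transcripts in GENCODE M21, were therefore not separated.

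**Figure D2:**
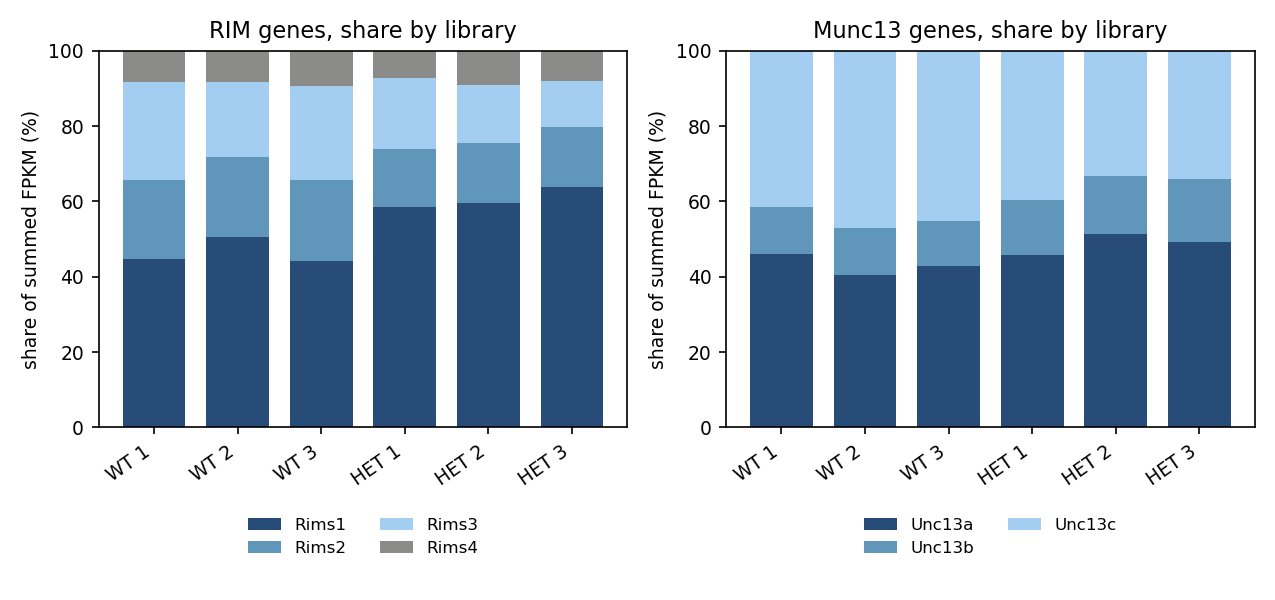
Share of each gene in the summed FPKM (%) of the 4 RIM genes (left) and of the 3 Munc13 genes (right), with 1 bar per library. Rims1 takes 44.3% to 50.5% in wild type and 58.6% to 63.9% in HET, and Unc13c takes 41.6% to 47.0% and 33.3% to 39.5%.

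Rimbp2 (chromosome 5, 128757788 to 128953644, minus strand), whose product links RIM to calcium channels, was at 14.7, 14.2 and 14.9 FPKM in the wild-type libraries, compared with 14.5, 17.8 and 14.9 FPKM in HET. HET 2 lay well above the wild-type range, and HET 3 (14.8796 FPKM) barely above its top, WT 3 (14.8719 FPKM). The log2 difference was 0.10 (SE 0.0880) and 0.01 without HET 2. Its relative Bzrap1, the gene for RIM-BP1, was at 16.9 ± 0.255 and 17.5 ± 0.718 FPKM (SD, n = 3 each; log2 difference 0.04, SE 0.0688), and the third relative, Rimbp3, lay below the filter at 0.416 to 0.622 FPKM.

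Among the Munc13 genes the one apart was Unc13c (chromosome 9, 73479422 to 74008155, minus strand). It was at 19.4, 22.4 and 23.0 FPKM in WT 1 to WT 3 and at 16.2, 14.6 and 13.2 FPKM in HET 1 to HET 3. Every HET library was below the lowest wild-type library, WT 1. The means were 21.6 ± 1.92 and 14.7 ± 1.53 FPKM (SD, n = 3 each), a ratio of 0.679 and a log2 difference of -0.53 (SE 0.0953). This was the 75th largest difference in size among all tested genes, and with 1 library left out it ran from -0.60 to -0.46.

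Unc13a (chromosome 8, 71624125 to 71671774, minus strand), the main hippocampal Munc13, was at 21.6, 19.3 and 21.9 FPKM in the wild-type libraries, compared with 18.8, 22.6 and 19.2 FPKM in HET, with a log2 difference of -0.05 (SE 0.0895, 95% interval -0.25 to 0.15). Unc13b (chromosome 4, 43046193 to 43264873, plus strand), which encodes the forms of Munc13-2, was the lowest member, at 5.76, 5.98 and 6.11 FPKM in the wild-type libraries, compared with 6.09, 6.72 and 6.51 FPKM in HET. It also had the smallest spread within genotypes of the 10, and its log2 difference was 0.10 (SE 0.0844), with HET 1 just inside the wild-type range. In wild type Unc13c and Unc13a had nearly the same mean level, 21.6 and 20.9 FPKM, and in HET Unc13c was at 14.7 against 20.2 FPKM. The share of Unc13c in the Munc13 sum was 44.6 ± 2.76% in wild type and 35.6 ± 3.43% in HET (SD, n = 3 each). The sum without it was 26.9 ± 1.45 and 26.6 ± 2.37 FPKM. The more distant relatives were low, Unc13d at 0.136 to 0.332 FPKM and Baiap3 at 0.931 to 1.99 FPKM.

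Thalamus markers differed between these libraries and moved with some members, and in whole-tissue RNA fewer cells of a type and less RNA per cell cannot be told apart. All 12 markers of the thalamus list were lower in HET on average, with summed levels of 244 to 290.3 FPKM in the wild-type libraries, compared with 144 to 281 FPKM in HET, and 0 of the 12 were at 0 in any library. Their median log2 deviation from the wild-type mean was -0.09 to 0.07 in wild type, 0.07 in HET 1, -0.69 in HET 2 and -0.77 in HET 3. Rims3 followed a like course, 0.12, -0.33 and -0.71 in HET 1 to HET 3. With the mean of these markers as a covariate its log2 difference was 0.06 (SE 0.154) in place of -0.31. Unc13c was at -0.39, -0.53 and -0.67 in HET 1 to HET 3, below all wild-type libraries in each, and the thalamus markers of HET 1 were at the wild-type level. Its difference with the covariate was -0.39 (SE 0.113) in place of -0.53. For Rims1 the value with the covariate was 0.78 (SE 0.133), and HET 1 was the highest of its libraries. The covariate was low only in HET 2 and HET 3, so it is partly tied to genotype and cannot fully separate tissue from genotype. The part of thalamic tissue in the differences of the members was not tested.

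**Figure D3:**
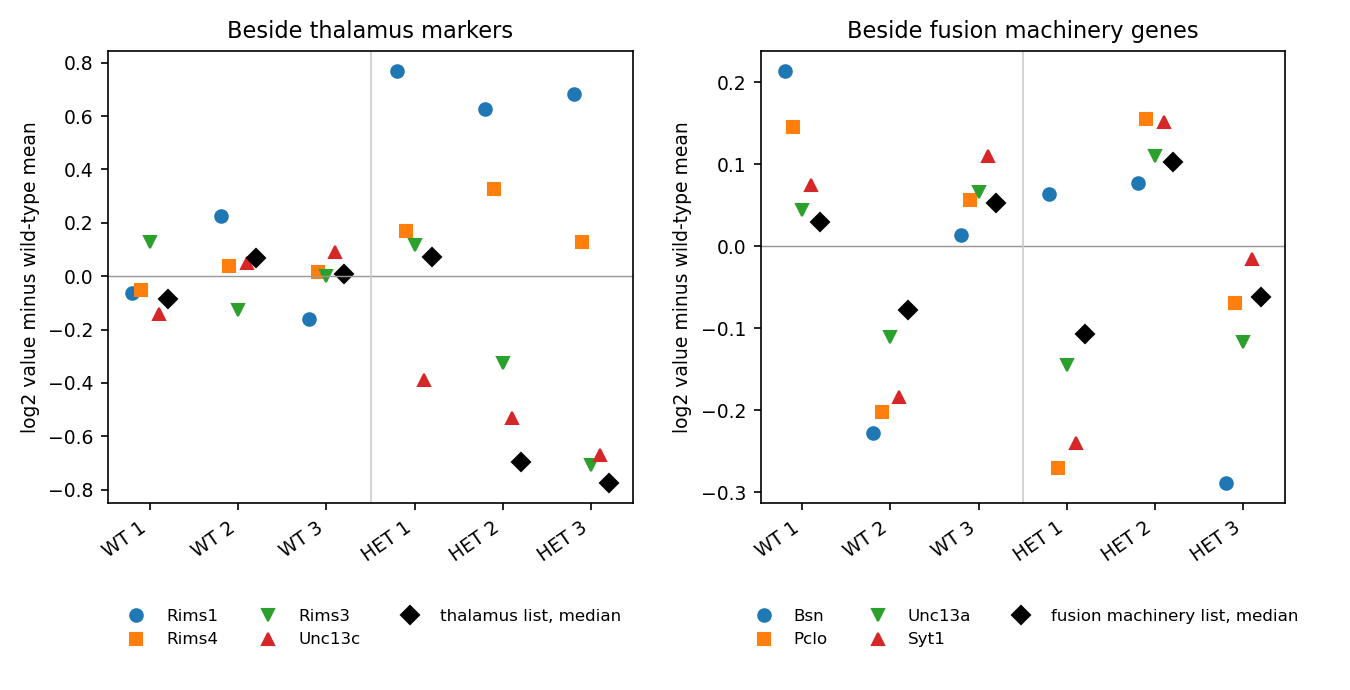
Log2 value minus the wild-type mean in each library, for Rims1, Rims4, Rims3 and Unc13c beside the median of the thalamus list (left) and for Bsn, Pclo, Unc13a and Syt1 beside the median of the fusion machinery list (right, narrower axis). On the left the thalamus median is at 0.07 in HET 1, where Unc13c is at -0.39; on the right the medians are -0.08, -0.11 and -0.06 in WT 2, HET 1 and HET 3.

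Markers of other cells were read the same way. Of cerebellar granule cells, where Unc13c is abundant, the markers Gabra6 and Cbln3 were at or near 0 in all 6 libraries (at most 0.364 and 0.159 FPKM), and 4 of the 6 markers lay below the filter. The other markers were Cbln1, at 0.825 to 2.63 FPKM over the 6 libraries, and Pax6, at 2.54 to 2.97 FPKM in wild type and 3.18 to 3.33 FPKM in HET, higher in HET without overlap. Interneuron markers were lower in HET in 6 of 7, with summed levels of 238 to 245 FPKM in the wild-type libraries, compared with 178 to 226 FPKM in HET. Their median log2 deviation was -0.18 to 0.12 in wild type, -0.38 in HET 1, 0.15 in HET 2 and -0.19 in HET 3. Of the defining genes Gad1 was at 43.7, 28.1 and 40.6 FPKM in the wild-type libraries, compared with 24.1, 35.5 and 31.2 FPKM in HET. Sst was at 57.0, 43.5 and 52.9 FPKM and at 38.7, 60.3 and 44.5 FPKM, and both genes overlapped between genotypes. Pvalb, the largest part of these sums, was at 82.4, 128 and 94.4 FPKM in the wild-type libraries, compared with 73.2, 74.2 and 72.6 FPKM in HET. Only Pvalb of the 7 had no overlap, where 8.52% of all genes tested had none. The part of interneurons in the Unc13c and Rims1 values was not tested. HET 2, the highest library for Rimbp2 and Rims4, stood apart in further lists. Its median log2 deviation was 0.78 for meninges, where 5 of 5 markers were higher in HET on average, and -0.34 for oligodendrocytes, and its summed choroid plexus level was 96.0 FPKM against 280.1 to 3418 FPKM in the other libraries. The part of these tissues in the Rimbp2 and Rims4 values was not tested. Hippocampal identity was present in all libraries, with the dentate markers Prox1 at 11.2 to 14.6 FPKM and C1ql2 at 12.2 to 16.5 FPKM, and the CA1 marker Fibcd1 at 14.6 to 19.4 FPKM. Of the dentate list 5 of 6 markers were lower in HET on average, with summed levels of 71.75 to 74.74 FPKM in wild type and 63.28 to 71.04 FPKM in HET. Of the CA1 list 3 of 5 were higher, with overlapping sums of 87.93 to 94.56 and 94.1 to 101.4 FPKM. The part of hippocampal subfields in the member values was not tested.

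Bsn (chromosome 9, 108096022 to 108190419, minus strand) was at 33.9, 24.7 and 29.4 FPKM in the wild-type libraries, compared with 30.5, 30.8 and 23.6 FPKM in HET. Its log2 difference of -0.05 (SE 0.132, 95% interval -0.35 to 0.25) was small beside the spread, which ran from WT 1 at the top to HET 3 at the bottom. Pclo (chromosome 5, 14514906 to 14863465, plus strand) was at 23.9, 18.5 and 22.4 FPKM in the wild-type libraries, compared with 17.6, 24.0 and 20.4 FPKM in HET, and its log2 difference was -0.06 (SE 0.123, 95% interval -0.34 to 0.21), and -0.26 (SE 0.137) with the thalamus covariate. With 1 library left out either value could turn sign, from -0.16 to 0.07 for Bsn and from -0.17 to 0.04 for Pclo. The ratio of Bsn to Pclo in FPKM was 1.31 to 1.42 in wild type, whereas HET 1 stood at 1.73, HET 2 at 1.28 and HET 3 at 1.16.

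A pattern across libraries that cut through both genotypes was seen in Pclo and Unc13a, and also outside the members. In both, WT 1, WT 3 and HET 2 were above WT 2, HET 1 and HET 3. Syt1, the calcium sensor of fast release, was at 223, 187 and 229 FPKM in WT 1 to WT 3 and at 179, 236 and 210 FPKM in HET 1 to HET 3. Cacna1b, which encodes the N-type calcium channel, was at 7.51, 5.68 and 6.82 FPKM and at 5.66, 6.95 and 5.77 FPKM. All 4 genes thus had the same 3 libraries above and below. The estimated depths of the upper libraries (10750000, 9550000 and 8850000 fragments) and of the lower ones (8750000, 8050000 and 12700000) overlapped. This pattern was noticed after the values were seen, and its source was not tested.

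**Figure D4:**
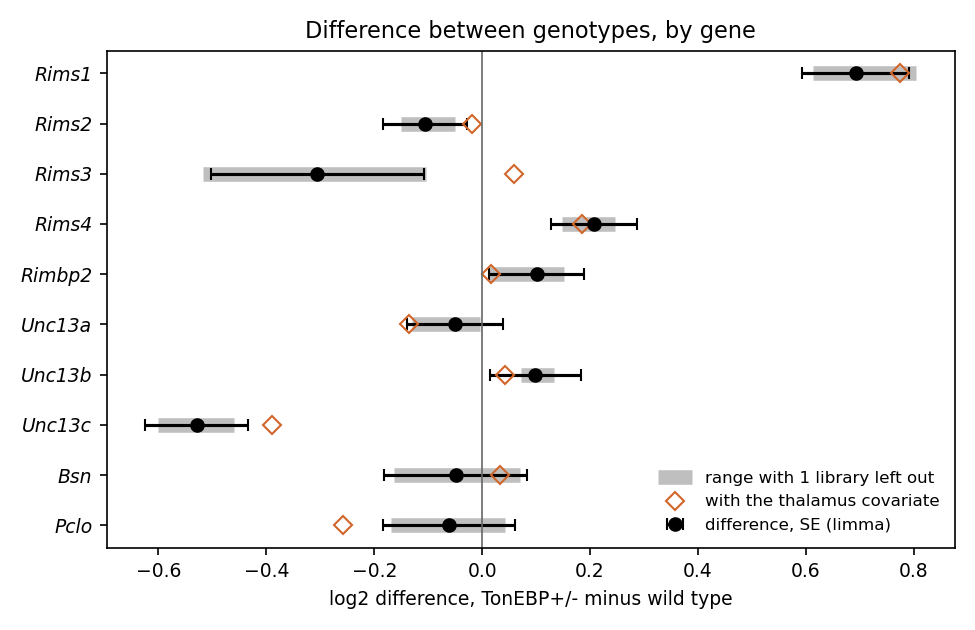
Log2 difference of each gene, TonEBP+/- minus wild type (black points, bars are SE from limma), the range over the 6 fits with 1 library left out (grey) and the value with the thalamus covariate (orange diamonds). Rims3 (0.06 with the covariate), Bsn and Pclo are the only members with values on both sides of 0 in these fits.

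Partners of the active zone proteins were taken from lists of the pathway. Of 28 active zone partners 26 were tested, and 0 passed in either direction, with 12 higher, 14 lower and a median log2 difference of -0.0026. Without overlap between genotypes were 3 of the 26 (Cask, Lin7b and Rab3c), where 8.52% of all genes tested had none. That share is near the background and is no result about the partners. Of 27 genes of the fusion machinery and synaptic vesicles 0 passed, with 10 higher, 17 lower, a median of -0.02, and 2 without overlap (Vamp1 and Syt2), again near the share of 8.52% over all genes. Of 10 presynaptic calcium channel subunits 0 passed, with 3 higher, 7 lower, a median of -0.05, and 0 without overlap.

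The 8 direct partners given here had log2 differences between -0.10 and 0.07. Erc2, the gene for the scaffold ELKS2, was at 41.2 ± 2.06 FPKM in the wild-type libraries, compared with 43.3 ± 2.92 FPKM in HET (SD, n = 3 each; log2 difference 0.07, SE 0.0738), and its relative Erc1 at 12.3 ± 0.356 and 11.6 ± 0.587 FPKM (-0.08, SE 0.0747). The liprin genes Ppfia2 and Ppfia3, whose products recruit active zone scaffolds, had log2 differences of -0.06 (SE 0.0670) and 0.03 (SE 0.0663). Rab3a, the vesicle GTPase that RIM binds, was at 155 ± 7.16 and 151 ± 10.4 FPKM (SD, n = 3 each; -0.04, SE 0.0771). Syt1 had a difference of -0.03 (SE 0.115). Cacna1a, which encodes the P/Q-type calcium channel, was at 12.4 ± 0.853 and 12.1 ± 1.10 FPKM (SD, n = 3 each; -0.03, SE 0.0894), and Cacna1b had a difference of -0.10 (SE 0.115). All 8 of these partners overlapped between genotypes.

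Genes most like Rims1 and Unc13c were taken by the smallest root mean square distance between log2 profiles over the 6 libraries, each centred on its own mean. Ranked were the tested genes except members, unnamed gene models and small RNAs. Nearest to Unc13c were Arhgap24 (distance 0.0871), the vesicle SNARE gene Vamp1 (0.0914), the sphingosine phosphatase gene Sgpp2 (0.0914), Elmo1 (0.101) and the sodium channel subunit gene Scn4b (0.103), where a flat profile would lie at 0.286. Vamp1 was at 63.6, 63.6 and 62.7 FPKM in the wild-type libraries, compared with 52.9, 44.3 and 39.1 FPKM in HET, lowest in HET 3 as Unc13c was. Rims1 had no ranked gene as near: Ccdc173 (0.158), Rpl14-ps1 (0.173), Mtrf1l (0.173), Rgs11 (0.179) and the chemokine receptor gene Cxcr4 (0.184), against 0.367 for a flat profile. These 5 were at 1.14 to 13.8 FPKM, far below Rims1. Rpl14-ps1 is a pseudogene copy of a ribosomal protein gene, so its value is uncertain. The likeness is a description that includes the genotype difference itself.

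The nearest tested genes on the chromosome gave a local comparison. Beside Rims1, the potassium channel gene Kcnq5, at a distance of 323.3 kb, was at 7.18 ± 1.93 and 6.68 ± 0.723 FPKM, and Ogfrl1, at 560.3 kb, at 59.0 ± 0.610 and 53.9 ± 2.91 FPKM (SD, n = 3 each). Beside Unc13c, Rsl24d1, at 356.1 kb, was at 30.9 ± 1.88 and 29.7 ± 1.40 FPKM, and Fam214a, at 944.7 kb, at 6.48 ± 0.918 and 5.32 ± 0.127 FPKM (SD, n = 3 each). Ogfrl1 and Fam214a did not overlap between genotypes and were lower in HET (log2 differences -0.13 and -0.24), whereas Kcnq5 and Rsl24d1 overlapped (-0.07 and -0.06). Of all genes tested 8.52% did not overlap, and nothing is read from these neighbours. Among genes annotated across a member, Colgalt1, on the strand opposite to Unc13a, was at 9.41 to 11.9 FPKM. Use of strand in the counting was not stated, so some fragments may be shared by Unc13a and Colgalt1.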

How the data were processed

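Libraries were made from hippocampal total RNA with a directional NEBNext Ultra II kit, per the labels' protocols, and the submitters' processing notes name TopHat and mm10. Versions, annotation and abundance program were not given in the sources used here. The deposited values are log2(value + 1), read from the values because no header names the unit: for genes of 1 transcript over 1 kb, 77.5% to 80.8% of low values per library (under 3.5 steps) lay within 0.15 of a whole number of fragments. The depth of each library was chosen to make this share largest, so the share is no independent check of the unit.

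Members and lists were chosen with earlier results of these data known. The filter (1 FPKM in 3 or more libraries) kept 13122 genes. The fit used limma 3.58.1 under R 4.3.3 on the deposited log2 values (genotype as the only term, trend and robust options, Benjamini-Hochberg adjustment over all genes tested, threshold 0.05), a procedure tested on simulated data. Because of the added 1, log2 differences of low genes are understated. Levels of neighbours were compared by an exact sign-flip permutation test. Named were all members, their paralogs, 8 of 10 direct partners (2 are not reported here), the 5 nearest profiles and the flanking genes; others are marked as seen first. Positions and windows are from RefSeq GRCm38.p6, overlaps from GENCODE M21. Alternatives were other scalings, filters and pseudocounts, no robust option, a replicate block, a thalamus covariate, a threshold of 0.1 and each library left out. Python 3.11.15 and matplotlib 3.10.9 were used.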

Additional observations from a re-analysis of the deposited data

How the results depend on the processing

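The count of 0 genes past the threshold, and of 0 members, was also found with median scaling, quantile normalization, a stricter filter, no filter, no robust option, a pseudocount of 0.1, the thalamus covariate and a threshold of 0.1. With 1 library left out, 0 to 8 genes passed, and 0 to 1 members: Rims1 without WT 2. The 8 genes passed without HET 1. They included the thalamus markers Plekhg1, Prkcd, Shox2 and Slc17a6, and Scn4b, named above among the profiles nearest to Unc13c. The part of thalamic tissue in these calls was not tested. Over all alternatives the adjusted p of Rims1 ran from 0.0421 to 1.00. The number of members without overlap between genotypes was 3 to 7 with 1 library left out, where 15.5% to 21.7% of all genes did not overlap (8.52% with all 6 libraries). It was 7 without HET 1, with 2628 of 13122 genes. The paired test of neighbouring levels passed 0 pairs throughout; with 5 libraries it cannot reach 0.05.

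With the replicate block, 0 genes and 0 members passed. Same-numbered libraries did not deviate together (correlations over genes of -0.208, -0.247 and -0.157). The other pairs of a wild-type and a HET library were at 0.0493 to 0.1688. Centred on 3 libraries a genotype, these correlations cannot show whether the numbers mark a batch, which was not tested. WT 2 and HET 2 did share the pattern of low values given above.

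Of 110 recomputed member differences, 107 lay within 1 SD of the reported value. The 3 others were with the thalamus covariate: Rims3 (0.06), Unc13b (0.04) and Unc13c (-0.39). The abundance unit is an inference from the values, and 3 mice a genotype limit all differences.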

Other observations

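Some further genes of the partner and fusion lists are named here after their values were seen, not by rank. Syt2, a fast calcium sensor gene, was at 5.75, 5.13 and 6.78 FPKM in the wild-type libraries, compared with 3.20, 4.15 and 3.62 FPKM in HET (log2 difference -0.56, SE 0.120), without overlap. Stx1a, a syntaxin gene, was at 24.3, 23.1 and 23.0 FPKM in the wild-type libraries, compared with 23.8, 34.2 and 28.9 FPKM in HET (0.28, SE 0.114), with HET 1 inside the wild-type range. The Rab3 genes, whose products RIM proteins bind, did not share a direction: Rab3b was at 4.99 ± 0.506 and 6.19 ± 0.746 FPKM (0.26, SE 0.110), and Rab3c at 107 ± 1.57 and 94.8 ± 8.86 FPKM (-0.18, SE 0.0791; SD, n = 3 each). None of these 4 passed the limma fit over all genes (adjusted p = 1.00 each).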
